A study of Mus musculus with 4 samples.

Results

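The insulin-like growth factors and their binding proteins on the panel were followed through every section of this spatial study of mouse skin and cheek. The members are 5 of the 328 genes of the panel, Igf1, Igf2, Igfbp2, Igfbp5 and Igfbp6. They were taken by name as ligands and binding proteins of one signalling system and were counted cell by cell on all 4 slides, using only transcripts whose quality score reached 20. Another 8 panel genes of the same pathway were read beside them. Xenium in situ analysis detects single transcripts of a chosen panel in thin tissue sections and assigns each one to an outlined cell. All skin came from Tet-On mice carrying TRE-Pitx1 and Krt5-rtTA, in which the Krt5 promoter directs rtTA to basal keratinocytes. Doxycycline chow then switches on the transcription factor PITX1 there. Control skin came from littermates on normal chow, which carry both transgenes, and PITX1+ skin from littermates on doxycycline. The labels tie no section to an animal, although the study's text counts its PITX1+ samples as mice and its buccal samples as mucosae. The p-values measure the spread between sections. The study's text describes the skin as adult and the donors of buccal mucosa as control mice. Doxycycline chow began in the telogen phase of the hair cycle. An exact age was not given in the sources used here. Dorsal skin without a wound lay on a male slide (Control 3, PITX1+ 3 and PITX1+ 4) and a female slide (Control 1, Control 2, PITX1+ 1 and PITX1+ 2). Buccal mucosa of untreated male and female mice lay on another slide as 7 sections, and male skin on day 4 after wounding lay on the last as 1 Control and 2 PITX1+ sections. The labels name conditions for slides only, so each section's condition rests on its place on the slide and, for the 14 unwounded sections, on a match of cell numbers; the 3 wound sections rest on place alone.

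IGF1 and IGF2 are small secreted ligands that signal mainly through the receptor IGF1R, while IGF2R takes up IGF2 and delivers it to lysosomes. Secreted binding proteins hold the ligands outside cells, prolong their life and decide how much reaches the receptor, and some of them also act without a ligand. In skin the dermis is a known source of IGF1, and the ligand acts on keratinocytes of the epidermis and hair follicle. IGF2 is best known as a growth factor of the embryo, expressed from the paternal allele.

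Between 2449 and 75268 cells per section held 10 or more transcripts, with 136365 to 5581930 transcripts in a section. Levels are given as CPM, the count of a gene in all cells that share a class and a section, scaled to 1000000 panel transcripts, and levels of different genes are not compared because each has its own probes. The classes were built without the IGF genes and named from marker genes. Genes used for naming stand out in their class by construction, so their levels describe the classes and do not test the names. Krt5 had a median of 31377 CPM in keratinocyte-like cells against 2567 CPM in the other classes. The values were 8519 against 412 CPM for Pi16 in fibroblast-like cells, and 24805 against 508 CPM for Pecam1 in endothelial-like cells. The ratio was smaller for Abcc9, a defining marker of mural-like cells. Pitx1, the induced gene, went against the assignment on one slide. In keratinocyte-like cells it stood at 1072 and 873 CPM in the male PITX1+ sections and 14.4 CPM in the male Control section. The female sections labelled PITX1+ held 43.7 and 79.8 CPM, on either side of the 58.4 and 53.2 CPM of the female Control sections. PITX1+ below therefore names the assigned label, and calls between PITX1+ and Control are also given by slide. In the wounds Pitx1 stood at 51.3 CPM in Control and 642 and 326 CPM in PITX1+. Depth went with condition on the male slide, with a median of 17 transcripts per cell in Control 3 and 51 and 83 in PITX1+ 3 and PITX1+ 4. Of 18724 cells of Control 3, 12684 held 10 or more transcripts, against 38248 of 43142 and 28005 of 29222. The female medians were 28 and 24 in Control and 30 and 53 in PITX1+. The part of depth in the differences was not tested. Buccal 3 stood apart, with 2449 cells, of which 2 were keratinocyte-like. It gives no keratinocyte-like value, and the buccal results are given without it where that changes them. A cell name was shared by 2 or more slides for 25 cells, and cells were always kept apart by slide.

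A search for the letters that PITX1 is known to favour, TAATCC on either strand, covered the 9 promoters that RefSeq (GRCm38) lists for the 5 members, each 300 bases from 250 before to 50 after a transcription start. Of these, 1 held a match, beside 7.06% of all 32851 listed promoters. The match lies in 1 of 4 promoters of Igf2, a gene on the minus strand. It is shown with its neighbouring bases because Igf2 is the ligand that differed most between tissues. Over both skin slides Igf2 was not called for PITX1+ against Control by edgeR in any class tested. Binding of PITX1 at this site was not tested. Capitals mark the match, which reads GGATTA on the strand of the gene and TAATCC on the plus strand.
Igf2 promoter window, chr7:142658777-142658806: gcctacccaagtGGATTAattatacgcttt
No match in the other windows says only that these letters are not there.

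Each member had its own distribution over cell classes in the 14 unwounded sections. Cells without a class name, 21.6% of buccal, 18.7% of Control and 6.68% of PITX1+ cells, are left out of the orders. They are also left out of the tests between conditions. Over the 7 classes found in at least 6 of the 14 sections, Igf1 was highest in immune-like and fibroblast-like cells and lowest in keratinocyte-like cells. Igf2 was highest in mural-like cells, a class named from genes of smooth muscle and pericytes, and next in endothelial-like cells. By the mean over sections Igfbp2 was the one member highest in epithelium, with sebaceous-like cells first, although in each Control section mural-like cells held more. Among the named classes Igfbp5 led in mural-like cells and Igfbp6 in neural-like cells. Buccal cells without a class name held more Igfbp5, at a mean of 98518 CPM against 52872.5 CPM in buccal mural-like cells. Of 30 pairs of neighbouring classes in these orders, 13 passed the exact sign-flip test over sections (two-sided, adjusted over the 30 pairs). The count fell to between 6 and 7 without Control 1, Control 2, Control 3, PITX1+ 3 or PITX1+ 4, each left out alone.

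**Figure D1:**
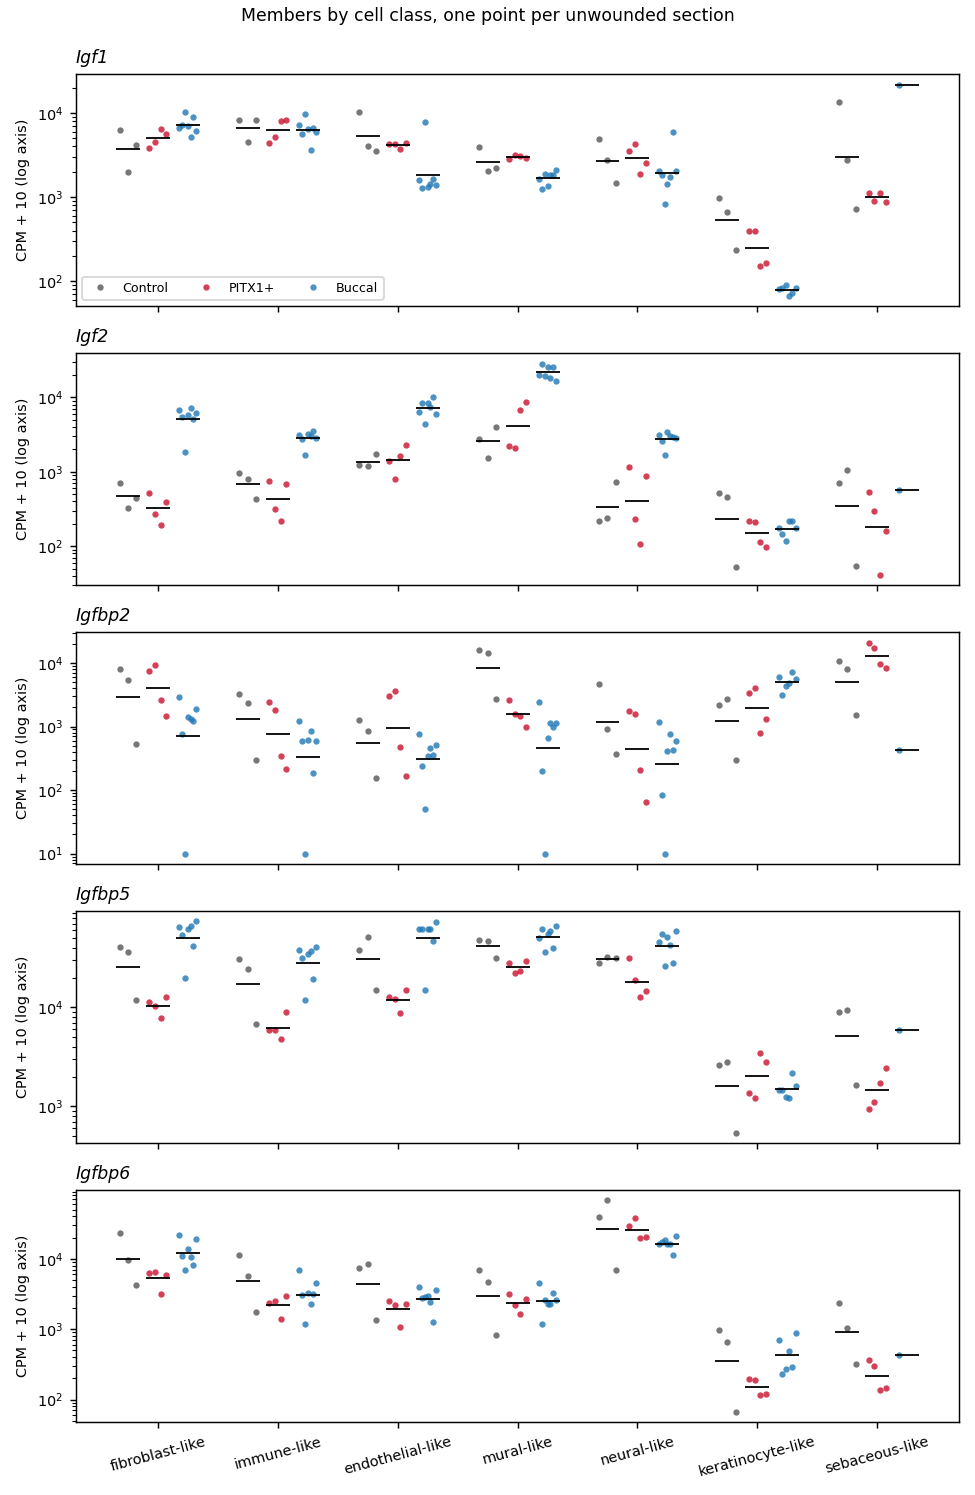
Level of each member (CPM plus 10, log axis) by cell class, with one point for each unwounded section that had at least 20 cells of the class and a bar at the mean on the log scale. Igf1 is lowest in keratinocyte-like cells, Igfbp6 is highest in neural-like cells, and the buccal points for Igf2 lie above those of skin in all 5 stromal classes.

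Igf1, the ligand that the dermis supplies to the epithelium, did not differ detectably between its leading classes, immune-like and fibroblast-like cells (adjusted p = 0.469). Fibroblast-like cells exceeded endothelial-like cells in 11 of 14 sections (adjusted p = 0.0372 by the exact sign-flip test), and mural-like cells exceeded keratinocyte-like cells in 13 of 13 (adjusted p = 0.00183). The sections where endothelial-like cells held more than fibroblast-like cells were Control 1, Control 2 and PITX1+ 1, all on the female slide. No neighbouring pair passed among the endothelial-like, neural-like, sebaceous-like and mural-like classes that lie between. The order follows the mean of log2 levels, and the sebaceous-like value was uneven, at 21773 CPM in Buccal 3, 13501 CPM in Control 1 and 711 to 2738 CPM in the other 6 sections that held the class. The 91 sebaceous-like cells of Buccal 3 also stood apart from those of skin in other genes. Their Igfbp2 was 424 CPM against 1511 to 21041 CPM in skin, and their Igfbp4 29408 CPM against 4564 to 10702 CPM. Whether they are the same kind of cell was not tested. Within the immune-like class one cluster, led by Cd209f, Ccl8 and Mrc1 as in resident macrophages, had the highest Igf1 level. Its level was 11135 ± 1623 CPM (SD, n = 3) in Control, 10160.3 ± 1727 CPM (SD, n = 4) in PITX1+ and 10045 ± 2303 CPM (SD, n = 7) in buccal sections. In unwounded PITX1+ sections, neutrophil-like cells led by Cxcr2 stood at 2996 ± 1720.0 CPM (SD, n = 4) and macrophage-like cells led by Mmp12 at 1687 ± 1504 CPM (SD, n = 3). In fibroblast-like cells the cluster led by Lum, Efemp1 and Ccl19 stood at 4974 ± 3559.9 CPM (SD, n = 3) in Control, 6949 ± 1382 CPM (SD, n = 4) in PITX1+ and 8731 ± 4894 CPM (SD, n = 7) in buccal sections. The cluster led by Wif1, Cdh11 and Dkk2 stood at 9559 ± 3009 CPM (SD, n = 3) in Control, 2960.5 ± 553 CPM (SD, n = 4) in PITX1+ and 10486 ± 3236 CPM (SD, n = 5) in buccal sections. That cluster made up 1.25% to 3.9% of fibroblast-like cells in Control sections and 6.02% to 32.6% in PITX1+ sections. These cluster values are descriptions without a test.

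Igf2, the second ligand, fell in steps from mural-like to endothelial-like cells (14 of 14 sections, adjusted p = 0.00122 by the exact sign-flip test) and from endothelial-like to fibroblast-like cells (12 of 14, adjusted p = 0.00305). From fibroblast-like cells down the order no neighbouring pair passed. Among cells that no class name fitted, those led by Des, Itgb6 and Abcc9 also carried Igf2; Des encodes desmin, the intermediate filament of muscle. Their level was 5503 ± 1515 CPM (SD, n = 7) in buccal, 1499 ± 639 CPM (SD, n = 3) in Control and 2482 ± 1659 CPM (SD, n = 4) in PITX1+ sections.

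Igfbp2, a secreted binding protein that holds both ligands, was higher in sebaceous-like than in keratinocyte-like cells in 7 of 7 skin sections (adjusted p = 0.0372 by the exact sign-flip test). No neighbouring pair among keratinocyte-like, fibroblast-like and mural-like cells passed over all sections, but the first pair ran opposite ways in skin and buccal mucosa. Fibroblast-like cells held more than keratinocyte-like cells in every skin section, and less in the 6 buccal sections that had both classes. In each Control section mural-like cells held more than sebaceous-like cells, at 15886, 14266 and 2692 against 10698, 8084.5 and 1511 CPM. Mural-like cells exceeded immune-like cells by the same test (adjusted p = 0.0372). Levels by cluster within the epithelium are given as descriptions, without a test, over sections that also differ in level. Buccal cells led by Mt4, Sox2 and Col17a1, which encodes a hemidesmosome collagen of basal keratinocytes, held 19104 ± 3012 CPM (SD, n = 6), and 97.7% of the cells of that cluster were buccal. More differentiated buccal cells led by Mt4, Krt4 and Tgm3 stood at 3930.5 ± 1017 CPM (SD, n = 6), and those led by Sprr3 and Krt78 at 139 ± 71 CPM (SD, n = 6). In PITX1+ skin, keratinocyte-like cells led by Flg, Hrnr and Lor, the cornifying layer, stood at 354 ± 112 CPM (SD, n = 4), and those led by Fcgbp, Clca3a2 and Col17a1 at 6415 ± 2789 CPM (SD, n = 4), and the latter stood at 2872 ± 1907 CPM (SD, n = 3) in Control skin. Both sebaceous-like clusters were high, at 13458 ± 5637 CPM (SD, n = 4) and 14677 ± 7081 CPM (SD, n = 4) in PITX1+ skin and 8899 ± 6739 CPM (SD, n = 3) and 5633 ± 4548 CPM (SD, n = 3) in Control skin. Their leading genes, Cidea and Elovl6, belong to lipid storage and fatty acid elongation.

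Igfbp5, a binding protein that also attaches to extracellular matrix, was above its next class, neural-like cells, in mural-like cells of 13 of 14 sections (adjusted p = 0.00575 by the exact sign-flip test). No neighbouring pair among neural-like, endothelial-like and fibroblast-like cells passed. Fibroblast-like exceeded immune-like cells (adjusted p = 0.00122) and immune-like exceeded sebaceous-like cells (adjusted p = 0.026). The highest cluster values were those of the same Des-led cells, at 102451 ± 34192 CPM (SD, n = 7) in buccal mucosa, and of endothelial-like cells led by Mmrn1 and Lyve1, markers of lymphatic vessels, at 103249 ± 13744 CPM (SD, n = 7) in buccal, 58836 ± 22261 CPM (SD, n = 3) in Control and 31278 ± 3489.9 CPM (SD, n = 4) in PITX1+ sections. Igfbp6, which prefers IGF2, led in neural-like cells and was higher there than in fibroblast-like cells in 13 of 14 sections (adjusted p = 0.00305). The leading genes of the neural-like cluster, Kcna1, Ncmap and Drp2, mark myelinating Schwann cells. Its Igfbp6 level was 37821 ± 30248 CPM (SD, n = 3) in Control, 26521 ± 8455 CPM (SD, n = 4) in PITX1+ and 16622 ± 2855 CPM (SD, n = 7) in buccal sections. Fibroblast-like exceeded immune-like cells in 14 of 14 sections (adjusted p = 0.00122), and cells led by Pi16, a marker of adventitial fibroblasts, reached 20898 ± 14512 CPM (SD, n = 3) in Control and 17503 ± 6833 CPM (SD, n = 4) in PITX1+ skin.

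**Figure D2:**
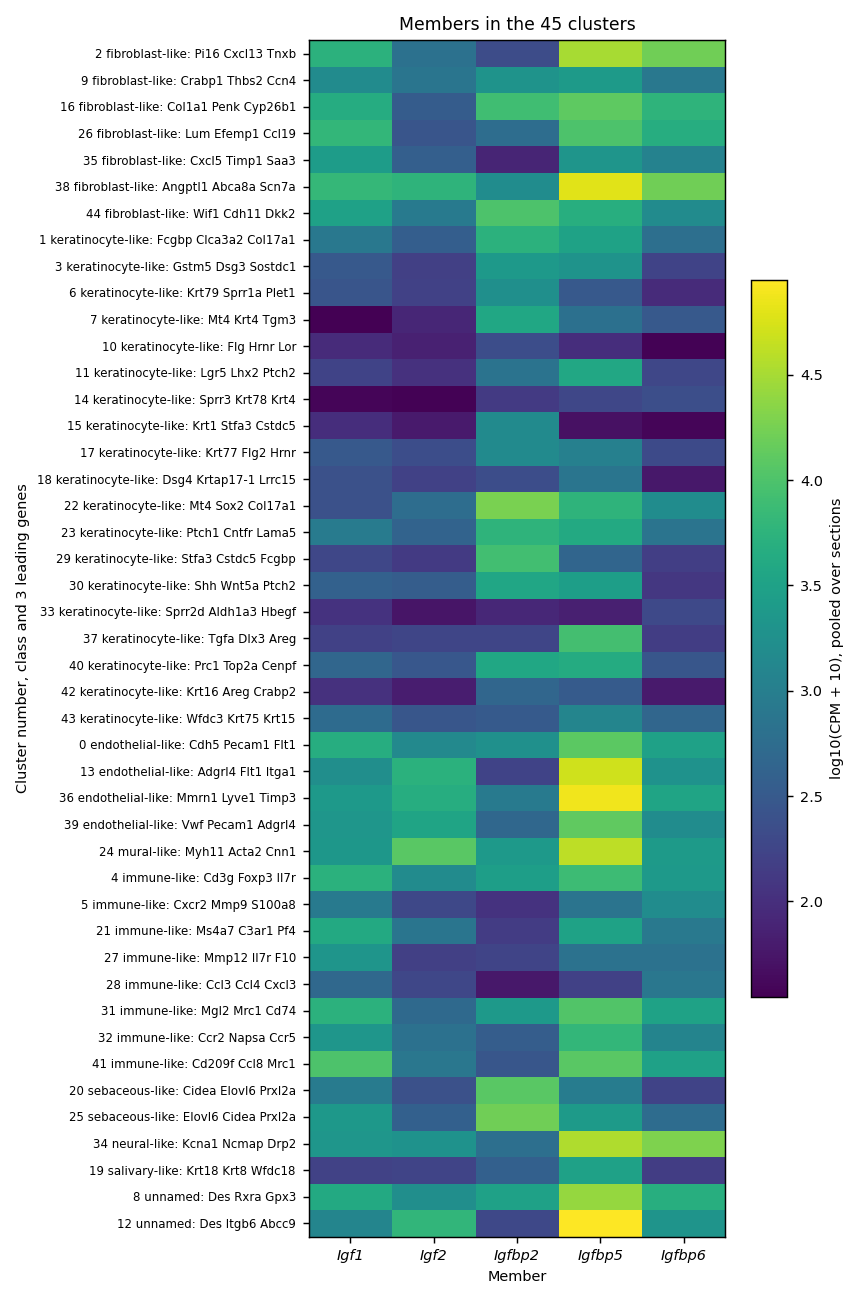
Level of each member in the 45 clusters, as log10 of CPM plus 10 pooled over all 17 sections; rows give the cluster number, its class and its leading genes. Pooled values mix tissues, since a cluster may lie mostly in one of them; cluster 22, mostly buccal, holds 18633 CPM of Igfbp2, mural-like cluster 24 11944 CPM of Igf2 and neural-like cluster 34 19660.3 CPM of Igfbp6.

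Differences between conditions were tested with edgeR's quasi-likelihood test on section sums, adjusted by the Benjamini-Hochberg method over all panel genes tested in that comparison. PITX1+ and buccal sections were compared with the same 3 Control sections, and buccal mucosa lay on a slide of its own, so tissue and slide cannot be told apart. The buccal sections were not assigned a sex, so the buccal comparisons have no term for sex, while the skin groups mix female and male sections. TMM scaling was used. Scaling by library size moved the median of all genes by -1.42 on the log2 scale in keratinocyte-like cells for buccal against Control and by -1.15 for buccal against PITX1+, and turned 104 higher and 120 lower calls into 50 and 203, and 77 and 122 into 37 and 197. In fibroblast-like cells it moved the median by 0.24 for PITX1+ against Control, with 20 higher and 10 lower calls becoming 26 and 3, and by 0.34 for buccal against Control, with 41 and 49 becoming 60 and 32. For buccal against Control the 46 higher and 29 lower calls became 29 and 49 in endothelial-like cells (median moved by -0.35), 30 and 33 became 39 and 25 in mural-like cells (0.30), and 10 and 20 became 22 and 17 in immune-like cells (0.15). Between PITX1+ and Control the few calls went from 3 higher and 1 lower to 1 and 1 in endothelial-like, from 0 and 1 to 1 and 1 in mural-like (median moved by 0.38) and from 1 and 0 to 7 and 1 in immune-like cells.

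In fibroblast-like cells the tissues differed most in Igf2. Control sections held 699.7, 316 and 436 CPM, PITX1+ sections 516, 265, 184 and 383 CPM, and the 7 buccal sections a lowest value of 1833, a median of 5732 and a highest value of 7101 CPM. No buccal section overlapped the skin, although Buccal 3 was the nearest to it. Igf2 was 9.13 times as high in buccal as in Control fibroblast-like cells (log2 difference 3.19 ± 0.47 (SE), adjusted p = 5.18e-04) and 16 times as high as in PITX1+ (log2 difference 4.00 ± 0.47 (SE), adjusted p = 5.44e-05). Of the 5 members, 1 passed the test for buccal against Control, where 31.4% of all panel genes tested did. For buccal against PITX1+ 3 of 5 passed, all higher in buccal sections, where 47% of panel genes did and 16.4% were called higher. Different clusters held the class in each tissue: the one led by Angptl1, Abca8a and Scn7a made up 32.7% to 88% of buccal and 1.33% to 3.8% of Control fibroblast-like cells. In Pi16-led cells, present in all tissues, Igf2 was 2637 ± 1219 CPM (SD, n = 7) in buccal, 386 ± 99.7 CPM (SD, n = 3) in Control and 481 ± 148 CPM (SD, n = 4) in PITX1+ sections.

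**Figure D3:**
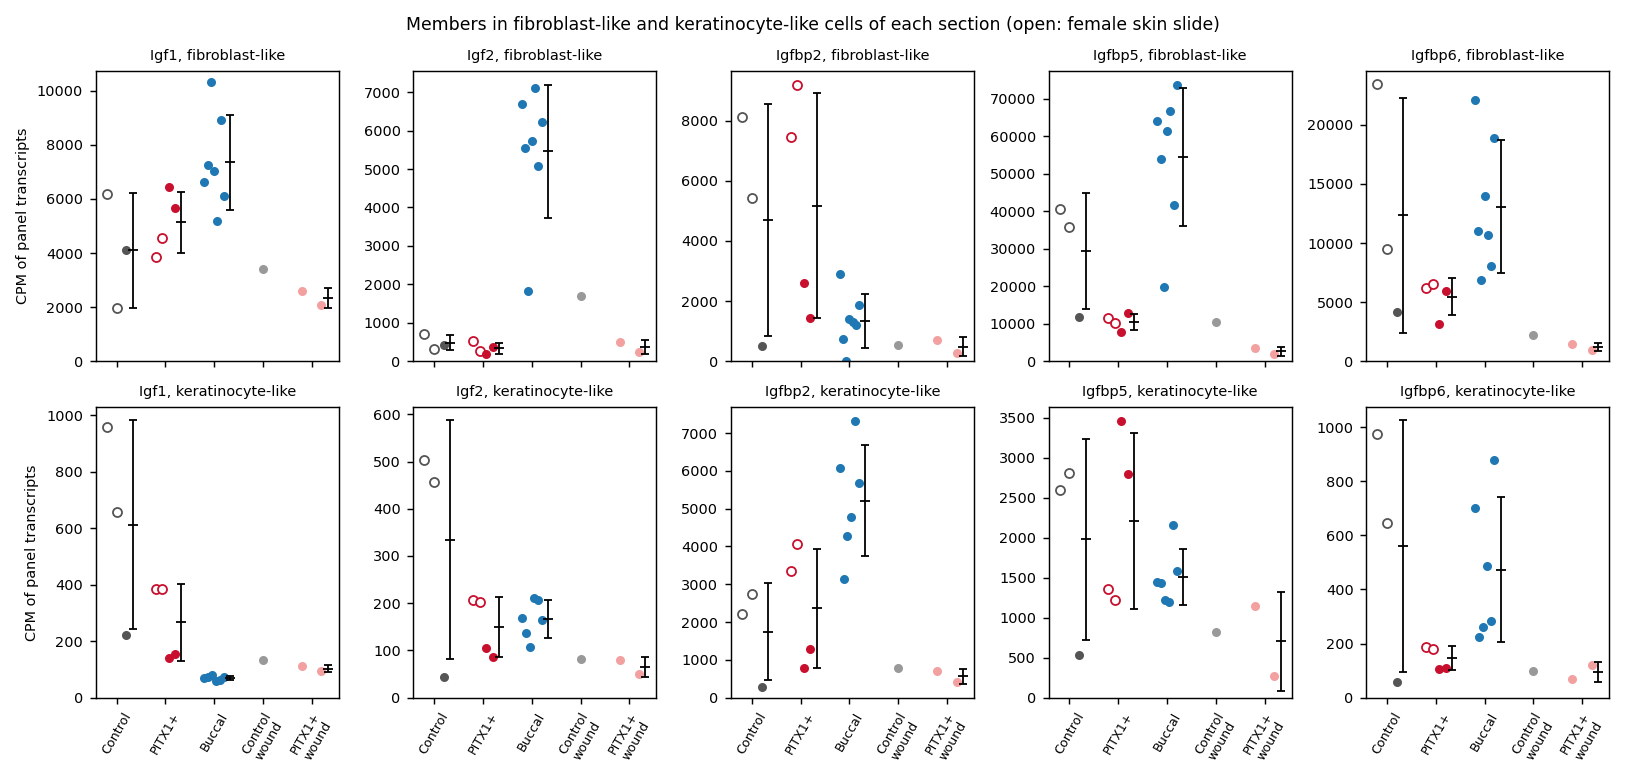
Level of each member (CPM) in fibroblast-like cells (top) and keratinocyte-like cells (bottom), with one point per section, open points for the female skin slide, and a mean with SD beside each condition of 2 or more sections. Buccal fibroblast-like cells lie apart from skin for Igf2, and female and male skin sections separate for Igfbp2 in both classes.

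Igfbp5 in fibroblast-like cells was 40523 and 35830.5 CPM in the female Control sections and 11449.6 and 10283 CPM in the female sections labelled PITX1+. On the male slide it was 11813 CPM in Control and 7794 and 12794 CPM in PITX1+, so the male sections overlapped. Buccal sections had a lowest value of 19817, a median of 61330.3 and a highest value of 73764 CPM, the lowest being Buccal 3. With slide in the model Igfbp5 was lower in PITX1+ than in Control (log2 difference -1.48 ± 0.40 (SE), adjusted p = 0.04), as 1 of 5 members called where 9.15% of panel genes were. On the female slide alone the log2 difference was -1.99 (adjusted p = 0.0219), and on the male slide it was -0.58. Because the male slide holds 1 Control section, its differences are given here and below with no p-value of their own. The call over both slides was lost when any of Control 1, Control 2, PITX1+ 1, PITX1+ 2 or PITX1+ 3 was left out, with adjusted p up to 0.174 without PITX1+ 2, and with library-size scaling (0.0514), transcripts of any quality (0.0565), 60 clusters (0.0557) or no slide covariate (0.306). Buccal exceeded PITX1+ fibroblast-like cells 5-fold (log2 difference 2.32 ± 0.39 (SE), adjusted p = 7.03e-04) and did not differ detectably from Control (log2 difference 0.59 ± 0.45 (SE), adjusted p = 0.321). The cells led by Col1a1 and Penk were 61.3% and 86.3% of fibroblast-like cells in the female Control sections and 61.5% and 68.6% in the female sections labelled PITX1+. On the male slide they were 26.6% in Control and 11.3% and 5.91% in PITX1+. Their Igfbp5 was 32518 ± 13107 CPM (SD, n = 3) in Control and 10929 ± 4501 CPM (SD, n = 4) in PITX1+ sections. In Pi16-led cells the values were 25009.6 ± 17649 CPM (SD, n = 3) and 32898 ± 6607 CPM (SD, n = 4).

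Igfbp6 showed a like slide pattern in these cells. The female Control sections held 23414 and 9475 CPM and the female sections labelled PITX1+ 6235 and 6549 CPM, while the male values were 4183 CPM in Control and 3146 and 5959 CPM in PITX1+. PITX1+ and Control overlapped, and the difference did not pass (log2 difference -0.98 ± 0.39 (SE), adjusted p = 0.138), except without PITX1+ 4 (adjusted p = 0.0251) and by DESeq2 (0.048). Buccal sections had a lowest value of 6895, a median of 11004 and a highest value of 22070.0 CPM. They were higher than PITX1+ (log2 difference 1.22 ± 0.41 (SE), adjusted p = 0.0269), a call lost without Buccal 1 (adjusted p = 0.0507), Buccal 7 (0.0526), PITX1+ 1 (0.0566) or PITX1+ 3 (0.0501) and against the male PITX1+ sections alone (0.0542).

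Igf1 in fibroblast-like cells passed in none of the comparisons over all sections by edgeR. Control sections held 6191, 1972 and 4130.4 CPM, PITX1+ sections 3873, 4557, 6436 and 5664 CPM, and buccal sections a lowest value of 5187, a median of 7036 and a highest value of 10312 CPM, with Buccal 3 the highest. All 3 groups overlapped. The differences did not pass for PITX1+ against Control (log2 difference 0.08 ± 0.31 (SE), adjusted p = 0.908), buccal against Control (log2 difference 0.51 ± 0.28 (SE), adjusted p = 0.177) or buccal against PITX1+ (log2 difference 0.42 ± 0.23 (SE), adjusted p = 0.156), but the second passed without Control 3 (log2 difference 0.96, adjusted p = 0.0278) and over nuclei (0.94, adjusted p = 0.0167). The third passed over nuclei (0.90, adjusted p = 0.00492) and by DESeq2 (0.56, adjusted p = 0.0419).

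Igfbp2 in fibroblast-like cells separated the skin slides. The 4 female sections held 8119 and 5433 CPM in Control and 7447 and 9188 CPM under the label PITX1+. The 3 male sections held 525.7 CPM in Control and 2619 and 1447 CPM in PITX1+, so every female section was above every male one, with sex and slide not to be told apart. The makeup of the class also split by slide. Cells led by Col1a1 and Penk were 61.3% to 86.3% of it in female and 5.91% to 26.6% in male sections, and the part of this was not tested. Buccal sections had a median Igfbp2 of 1309 CPM, and Buccal 3 had 0 of 32195 transcripts, which allows up to 93.2 CPM. None of the comparisons passed over all sections by edgeR or DESeq2: by edgeR PITX1+ against Control gave log2 difference 0.66 ± 0.38 (SE), adjusted p = 0.295, buccal against Control log2 difference -1.99 ± 0.85 (SE), adjusted p = 0.0926, and buccal against PITX1+ log2 difference -1.92 ± 0.76 (SE), adjusted p = 0.0533. Buccal fibroblast-like cells were lower than Control without Buccal 3 (log2 difference -1.80, adjusted p = 0.0338) or without Control 3 (-2.21, adjusted p = 0.0405). They were lower than PITX1+ without Buccal 1 (adjusted p = 0.0428), without Buccal 3 (-1.70, adjusted p = 0.0167) or without PITX1+ 4 (adjusted p = 0.0471), and with 30 or 60 clusters (0.0492 and 0.0463), all by edgeR.

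In keratinocyte-like cells, the class in which the transgene acts, Igfbp2 was higher in buccal epithelium than in skin, and higher in PITX1+ than in Control skin on both slides. The female Control sections held 2208 and 2730.2 CPM and the female sections labelled PITX1+ 3340.3 and 4055 CPM. The male Control section held 288 CPM, and the male PITX1+ sections 788 and 1287 CPM. The 6 buccal sections had a lowest value of 3129, a median of 5225 and a highest value of 7329 CPM, all above Control and overlapping the female sections labelled PITX1+. For PITX1+ against Control the test gave log2 difference 1.10 ± 0.27 (SE), adjusted p = 0.0227, with 0.92 on the female slide (adjusted p = 0.0305) and 1.74 on the male slide. This call was lost without Control 1, Control 2, Control 3, PITX1+ 2 or PITX1+ 3, with adjusted p of 0.0501 to 0.115, under library-size scaling (0.0619) and with no slide covariate (0.515). Buccal exceeded Control 8.45-fold (log2 difference 3.08 ± 0.53 (SE), adjusted p = 3.89e-04) and PITX1+ 4.69-fold (log2 difference 2.23 ± 0.45 (SE), adjusted p = 0.00114) on the TMM scale. Under library-size scaling the log2 differences were 1.57 (adjusted p = 0.0185) and 1.14 (adjusted p = 0.0352, edgeR). Every female skin section was above every male one, so the size of both buccal differences depends on the mix of female and male sections. That part was not tested. The makeup of the class moved with the groups: hair follicle-like cells were 16.7% to 28.2% of keratinocyte-like cells in Control, 19.9% to 57.5% in PITX1+ and 0.739% to 2.29% in the 6 buccal sections, and basal-like cells 28.2% to 46.9%, 16.2% to 28.4% and 35.9% to 46.2%. The part of these shares in the keratinocyte-like differences was not tested.

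Igf1 was at its lowest in this class and lower still in buccal epithelium. Control sections held 958, 657 and 223 CPM, PITX1+ sections 385, 385, 141 and 156 CPM, and buccal sections between 57.1 and 78.7 CPM, with no overlap between buccal mucosa and skin. These levels rest on few transcripts, 31 in 3882 cells of Control 3 and 85 in 3965 cells of Buccal 1. All panel transcripts of the same cells numbered 138870 in Control 3 and 1201568 in Buccal 1, so a lower CPM need not mean fewer Igf1 transcripts per cell. Outlines can take up transcripts of a neighbouring cell, and the part of this was not tested. On each slide the PITX1+ sections were below the Control sections (log2 difference -0.83 ± 0.23 (SE), adjusted p = 0.0332). That call was lost without any of Control 1, Control 2, Control 3, PITX1+ 1, PITX1+ 2 or PITX1+ 3 (adjusted p between 0.0593 and 0.154), under library-size scaling (0.0522), over nuclei (0.0831), with any quality (0.0619) and with no slide covariate (0.313). By slide it was -0.70 (female, adjusted p = 0.0612) and -0.70 (male), so it did not pass on the female slide alone. Buccal against Control gave log2 difference -1.64 ± 0.34 (SE), adjusted p = 0.0014, with -3.14 under library-size scaling (adjusted p = 2.02e-05) and -0.69 with transcripts of any quality, where the call was lost (adjusted p = 0.0885). Buccal against PITX1+ gave log2 difference -0.78 ± 0.39 (SE), adjusted p = 0.102, where the call appeared without PITX1+ 3 (adjusted p = 0.0216) or PITX1+ 4 (0.0271), over nuclei (0.00756) or under library-size scaling (4.44e-04).

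For these cells 2 of 5 members passed for PITX1+ against Control, where 34.5% of panel genes did, 3 of 5 for buccal against Control (69.3%), and 3 of 5 for buccal against PITX1+ (61.4%, with 23.8% higher). Igfbp6 was among the last 3: buccal sections held 702, 223, 260.1, 485, 285 and 878 CPM, all above the PITX1+ values of 185, 181, 107 and 111 CPM (log2 difference 2.83 ± 0.49 (SE), adjusted p = 3.61e-04, and 1.69 under library-size scaling). The Control values of 976, 646 and 57.6 CPM spanned the buccal range (log2 difference 1.30 ± 0.69 (SE), adjusted p = 0.115), though DESeq2 called it (adjusted p = 0.0335). The lowest of these Control values, that of Control 3, rests on 8 transcripts. Igf2 in buccal sections was 168, 136, 108, 211, 208 and 165 CPM and in PITX1+ sections 207, 202, 104 and 87 CPM, which overlapped in CPM but passed on the TMM scale (log2 difference 1.27 ± 0.38 (SE), adjusted p = 0.0109). Under library-size scaling the log2 difference was 0.14 (adjusted p = 0.732, edgeR), and with transcripts over the nucleus it turned to -0.45. With any quality the call was lost too (adjusted p = 0.221), and over nuclei Igf2 was lower in buccal than in Control sections (-1.60, adjusted p = 0.0338). Igfbp5 in buccal sections, at 1447, 1439, 1222, 1196, 2163 and 1584 CPM, was called higher than Control by TMM (log2 difference 1.10 ± 0.37 (SE), adjusted p = 0.021) and turned to -0.40 under library-size scaling (adjusted p = 0.397). The call was also lost without Buccal 7 (adjusted p = 0.0506) and with any quality (0.114). Against PITX1+ it was called higher by DESeq2 (log2 difference 0.85, adjusted p = 0.0215).

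The PITX1+ difference in Igfbp5 went opposite ways on the skin slides in keratinocyte-like cells. The female Control sections held 2595 and 2814 CPM, and the female sections labelled PITX1+ were lower at 1359 and 1216 CPM. The male Control section held 533 CPM, and the male PITX1+ sections were higher at 3463 and 2801 CPM. That Control section had the lowest median of transcripts per cell among the unwounded skin sections. Alone, the female slide gave a log2 difference of -0.72 (adjusted p = 0.0696) and the male slide 2.44. The test of the difference between slides passed for Igfbp5 (log2 difference 2.94 ± 0.44 (SE), adjusted p = 0.0182), as 1 of 5 members where 4.27% of panel genes passed. It was lost without Control 1 (adjusted p = 0.111) or Control 2 (0.13) and over nuclei (0.119) and rests on 1 male Control section. The share of hair follicle-like cells was 16.7% and 18.1% in the female Control sections and 19.9% and 47.6% in the female sections labelled PITX1+, and 28.2% in the male Control section and 52% and 57.5% in the male PITX1+ sections. Igfbp6 also fell on the female slide (log2 difference -1.77, adjusted p = 2.39e-04) and was 0.80 on the male slide, but the test between slides did not pass (log2 difference 2.36 ± 0.55 (SE), adjusted p = 0.0821), except without PITX1+ 4 (adjusted p = 0.0437), with library-size scaling (0.0461) or by DESeq2 (0.00821). Over both slides Igfbp6 of PITX1+ against Control did not pass by edgeR (log2 difference -1.14 ± 0.51 (SE), adjusted p = 0.121) but passed by DESeq2 (-1.21, adjusted p = 0.0248) and without Control 3 (log2 difference -1.82, adjusted p = 0.0115, edgeR). Over nuclei Igfbp5 passed in this comparison (1.66, adjusted p = 0.0483), and on the female slide Igf2 was lower under the label PITX1+ (-0.87, adjusted p = 0.0138, edgeR). No member passed the test between slides in fibroblast-like cells, with adjusted p from 0.411 to 0.966 by edgeR, and 0% of panel genes did. At an unadjusted p under 0.05 the counts were 0 members and 44 of 328 genes, and by DESeq2 0 members and 4 genes.

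In mural-like cells Igf2 and Igfbp2 moved in opposite directions between tissues. Igf2 was 2775, 1513 and 3979.9 CPM in Control, 2217, 2074, 6849 and 8664 CPM in PITX1+ sections, and a lowest value of 16489.8, a median of 20085 and a highest value of 28562 CPM in buccal mucosa. The buccal sections lay far above Control without overlap, 6.74-fold on the TMM scale (log2 difference 2.75 ± 0.33 (SE), adjusted p = 5.51e-05). Igfbp2 was 15886, 14266 and 2692 CPM in Control, 2566, 1544, 1473 and 985 CPM in PITX1+ sections and up to 2440.2 CPM in buccal sections, with none of 5824 transcripts in Buccal 3, which allows up to 515 CPM. It was lower than Control in buccal (log2 difference -3.90 ± 0.62 (SE), adjusted p = 4.47e-04) and in PITX1+ sections (log2 difference -2.70 ± 0.41 (SE), adjusted p = 0.0013), without overlap in either case. By slide the PITX1+ difference was -3.41 (female, adjusted p = 8.34e-10) and -1.42 (male), and it did not pass over nuclei (-1.86, adjusted p = 0.221) or with no slide covariate (0.143). For PITX1+ against Control 1 of 5 members was called, where 0.562% of panel genes were. That share is 1 of 178 genes, Igfbp2 itself, so it gives no background for the call. In the PITX1+ sections Igfbp2 rests on 22, 35, 40 and 50 transcripts, and the part of class makeup was not tested. Without Control 1, Control 3 or PITX1+ 4 Igfbp5 was called as well (edgeR, adjusted p = 0.0482, 0.0159 and 0.0343). So it was by DESeq2 (0.00128) and with no filter on genes (0.0312). Without Control 3 Igfbp6 was also lower in PITX1+ (adjusted p = 0.0109) and in buccal sections (0.00381, edgeR). For buccal against Control 3 of 5 passed, where 39.9% of panel genes did: Igf1 was the last of these, at 3917, 2017 and 2224 CPM in Control and between 1245 and 2063 CPM in buccal sections, which just overlapped (log2 difference -1.05 ± 0.28 (SE), adjusted p = 0.0104), a call lost without Control 1 (adjusted p = 0.126), under library-size scaling (0.0594), with no filter on genes (0.0759) and with 60 clusters (0.351).

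Endothelial-like cells, which line the vessels, also carried more Igf2 in buccal mucosa. Control sections held 1234, 1195 and 1731 CPM, and buccal sections had a lowest value of 4372, a median of 7533 and a highest value of 10142 CPM, with no overlap (log2 difference 2.68 ± 0.34 (SE), adjusted p = 4.61e-04). This was 1 of 5 members called, where 30.9% of panel genes were. Igf1 in Buccal 3 was 7825 CPM against 1279 to 1645 CPM in the other 6 buccal sections and 10154, 4064 and 3558 CPM in Control. Over all sections it did not pass (log2 difference -1.03 ± 0.57 (SE), adjusted p = 0.17), and without Buccal 3 it was lower in buccal mucosa (log2 difference -1.76, adjusted p = 8.67e-04), while Igfbp5 was higher (1.15, adjusted p = 0.0125, edgeR). Over all sections Igf1 was called by DESeq2 (-1.68, adjusted p = 2.58e-07) and Igfbp5 with no filter on genes (adjusted p = 0.0389). In endothelial-like cells no member passed for PITX1+ against Control (edgeR; adjusted p from 0.0778 to 0.979), where 1.38% of panel genes did. At an unadjusted p under 0.05 there were 3 members and 58 of 290 genes, and by DESeq2 1 member, Igfbp5, among 7 genes. Igfbp5 was 38149.6, 51631 and 14809.8 CPM in Control and 12606, 12258, 8712 and 14994 CPM in PITX1+ sections, and it passed without Control 1, Control 3 or PITX1+ 4 (adjusted p = 0.0101, 0.0209 and 0.0153), over nuclei (4.80e-04) or with 60 clusters (0.0475). Igfbp6 passed without Control 3 (0.0257) and Igfbp2 without PITX1+ 4 (0.036, edgeR).

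Immune-like cells repeated the tissue difference in Igf2, at 944, 786 and 421 CPM in Control and a lowest value of 1682, a median of 3005 and a highest value of 3554 CPM in buccal sections (log2 difference 1.86 ± 0.31 (SE), adjusted p = 0.00238). Counting transcripts over the nucleus alone removed it (log2 difference -0.16, adjusted p = 0.873, edgeR). It was 1 of 5 members called, where 12% of panel genes were, and Igfbp2 joined it, lower in buccal sections, without Control 3 (adjusted p = 0.0231) or with 30 clusters (0.0423). Igf1 did not differ detectably in this class, at 6944 ± 2139 CPM (SD, n = 3), 6454 ± 1960.4 CPM (SD, n = 4) and 6419 ± 1848 CPM (SD, n = 7) in Control, PITX1+ and buccal sections. For PITX1+ against Control no member passed (edgeR; adjusted p from 0.231 to 0.828), where 0.308% of panel genes did. At an unadjusted p under 0.05 there was 1 member, Igfbp5, among 49 of 325 genes, and it was also the 1 called by DESeq2, among 22 genes. Igfbp5 was 31010.3, 24628 and 6736 CPM in Control and 5874, 5858, 4810.1 and 9062 CPM in PITX1+ sections. It passed without Control 3 (adjusted p = 0.0481) or PITX1+ 4 (0.0223), and Igfbp6 without PITX1+ 4 (0.0365, edgeR). On the female slide alone Igfbp5 was lower under the label PITX1+ in fibroblast-like, endothelial-like, mural-like and immune-like cells, with log2 differences of -1.99, -2.01, -1.40 and -2.06 (adjusted p = 0.0219, 0.0278, 0.00715 and 0.00669, edgeR). Outlines can take up transcripts of a neighbouring cell, and the part of this in the shared pattern was not tested.

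Fibroblast-like cells were then split at 50 µm from the centre of the nearest keratinocyte-like cell, to ask where the ligands and binding proteins lie relative to the epithelium. In buccal mucosa both ligands were higher near the epithelium, in all 6 sections with enough cells. Igf1 averaged 9834 CPM near and 4255 CPM far (mean log2 difference 1.22 ± 0.40, SD), and Igf2 9532 CPM near and 3422 CPM far (1.45 ± 0.34). Igfbp5 ran the other way in all 6, with 50539 CPM near and 67937 CPM far (-0.43 ± 0.13), and Igfbp6 was higher near in 5 of 6 (15160.4 CPM near and 13319 CPM far). For each of Igf1, Igf2, Igfbp2 and Igfbp5 the exact sign-flip test gave p = 0.0312, the smallest that 6 sections allow, and 0.117 after adjustment over 15 tests. Adjusted over 15 tests no call could be made with these numbers of sections. With 3 Control and 4 PITX1+ sections p cannot go below 0.25 and 0.125. In buccal sections the cluster led by Wif1 and Cdh11 made up 7.125% of near and 0.48% of far fibroblast-like cells. Pi16-led cells made up 3.98% and 14.6%, and the cluster led by Angptl1 78.8% and 77.5%. The part of these shares in the buccal near and far values was not tested.

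In skin the ligands ran less uniformly. Igf1 averaged 3559.8 CPM near and 4652 CPM far in Control, higher near in 1 of 3 sections, and 4653 CPM near and 6028 CPM far in PITX1+, lower near in 4 of 4. Igf2 averaged 683 CPM near and 419 CPM far in Control, higher near in 3 of 3, and 302 CPM near and 409.7 CPM far in PITX1+, lower near in 3 of 4. Igfbp5 was higher near the epithelium in 3 of 3 Control sections (36151 CPM near and 23845 CPM far) and lower near in 4 of 4 PITX1+ sections (6663 CPM near and 17952 CPM far), a difference between groups that was not tested. Igfbp6 was lower near in 3 of 3 Control (8181 CPM near and 15587 CPM far) and 4 of 4 PITX1+ sections (2713 CPM near and 10242 CPM far). The cluster led by Wif1 and Cdh11 made up 22.5% of near and 0.52% of far fibroblast-like cells in PITX1+ skin, and Pi16-led cells 1.97% and 31.7%, so near and far cells were not of the same clusters. That part in the near and far values was not tested.

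Igfbp2 was the member most concentrated beside the epithelium. It was higher near in all 13 sections tested, at 9634 CPM near and 319.5 CPM far in Control, 7968 CPM near and 523 CPM far in PITX1+ and 3534 CPM near and 130.1 CPM far in buccal sections. Its mean in Control was 15357 CPM within 25 µm and 694 CPM at 25 to 50 µm, and in buccal sections 4945 and 1026 CPM. Keratinocyte transcripts moved with it: Krt5 was 1791 CPM near and 220.3 CPM far in Control fibroblast-like cells, and 7112 and 655 CPM in buccal ones. As a ratio to the level in keratinocyte-like cells of the same section, Krt5 near the epithelium was 0.0266 to 0.0465 in Control, 0.0759 to 0.131 in PITX1+ and 0.176 to 0.324 in buccal sections. Other keratinocyte markers ran higher in places, Krt15 at 0.0948 to 0.281 in PITX1+ and Itgb4 at 0.347 to 0.586 in buccal sections. The same ratio for Igfbp2 was 3.72 to 7.66 in Control, 1.91 to 4.35 in PITX1+ and 0.32 to 1.01 in buccal sections. The ratio sets near cells against the keratinocyte-like class as a whole, not against the epithelial cells beside them. Sebaceous-like cells, which lie outside that class, held 1511 to 10698 CPM of Igfbp2 in Control and 8240 to 21041 CPM in PITX1+ skin. Outlines can take up transcripts of a neighbouring cell, and the part of this in the near values was not tested.

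**Figure D4:**
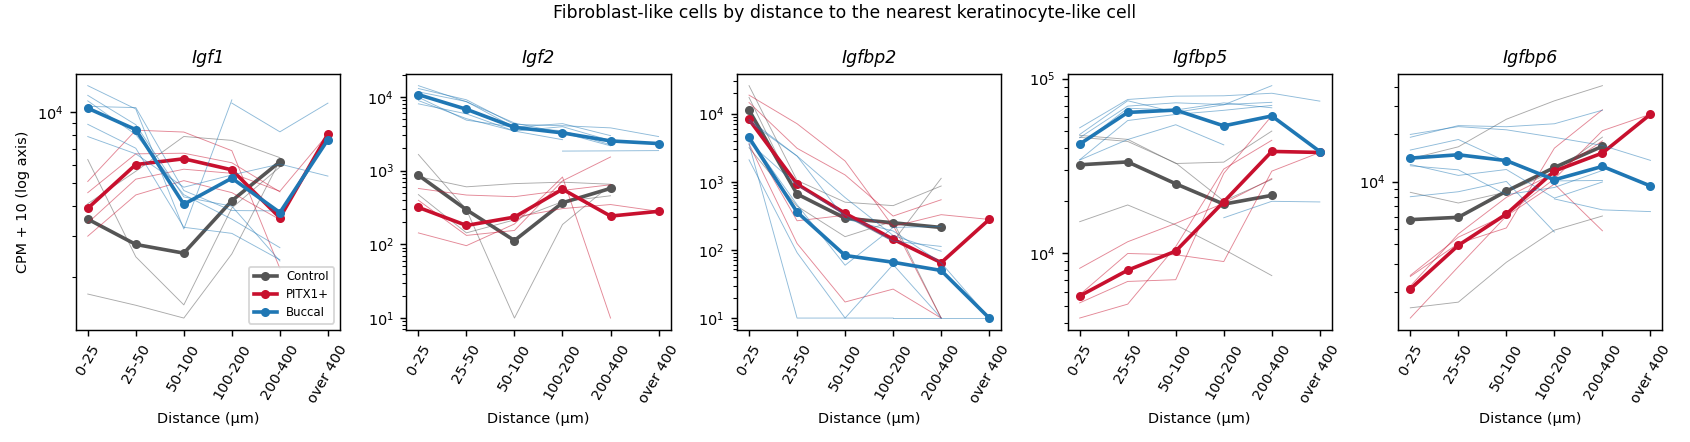
Level of each member (CPM plus 10, log axis) in fibroblast-like cells by distance to the nearest keratinocyte-like cell, with thin lines for sections and thick lines for the mean on the log scale of each condition. Mean buccal Igf2 is 10901 CPM within 25 µm and 2582 CPM at 200 to 400 µm, and the thick Igfbp2 lines drop from the nearest bin to 50 to 100 µm in all 3 conditions.

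The day 4 wounds were 1 Control and 2 PITX1+ sections of male skin, so the Control group has no spread of its own, no test was made, and the intervals cover counting error only. In fibroblast-like cells 4 of 5 members were lower in both PITX1+ wounds than in the Control wound, where 40.5% of panel genes were. Igfbp5 was 10422 CPM (95% interval 10071 to 10782) in the Control wound, and 3504 CPM (95% interval 3363 to 3649.6) and 1849.7 CPM (95% interval 1779 to 1922) in the PITX1+ wounds. Igf2 was 1687 CPM (95% interval 1548 to 1836), 510.3 CPM (95% interval 457 to 567.6) and 250.1 CPM (95% interval 225 to 278). Igf1 stood at 3409 CPM (95% interval 3210.0 to 3618), 2592 CPM (95% interval 2471 to 2717) and 2086 CPM (95% interval 2011 to 2163), a smaller spread, and Igfbp6 at 2206, 1465 and 983 CPM. Igfbp2 was 559 CPM in the Control wound and lay on either side of it in the PITX1+ wounds (706 and 266 CPM). Against the unwounded male PITX1+ sections, the mean of the PITX1+ wounds was lower for Igfbp5 by 3.85-fold, Igfbp6 by 3.72-fold, Igfbp2 by 4.18-fold and Igf1 by 2.59-fold, on a different slide. Igf2 did not share this direction: the unwounded male PITX1+ sections held 184 and 383 CPM, with a mean of 283 CPM between the values of the PITX1+ wounds. The ratio of the Control wound to the unwounded male Control section was 3.87 for Igf2, 1.06 for Igfbp2, 0.88 for Igfbp5, 0.83 for Igf1 and 0.53 for Igfbp6. The share of panel genes that were lower was not worked out for these comparisons across slides. The makeup of the class differed too: cells led by Cxcl5, Timp1 and Saa3, genes of inflamed stroma, were 21% of fibroblast-like cells in the Control wound and 41.3% and 44.5% in the PITX1+ wounds. Their Igfbp5 was 1795 CPM in the Control wound and 2204 ± 617 CPM (SD, n = 2) in the PITX1+ wounds. Pi16-led cells held 20766 CPM in the Control wound and 11443 ± 6542 CPM (SD, n = 2) in the PITX1+ wounds. The Des, Itgb6 and Abcc9 cells of the Control wound had 32231 CPM of Igf2, against 9792 ± 734 CPM (SD, n = 2) in the PITX1+ wounds.

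The other pathway genes on the panel were the receptors Igf1r and Igf2r, the binding proteins Igfbp3, Igfbp4 and Igfbp7, and the integrins Itgb4, Itga6 and Itgb3, which have been described as IGF1 partners. In fibroblast-like cells 1 of these 8 was higher in PITX1+ than in Control and none lower, where 9.15% of panel genes were called. That gene was Igfbp4, at 2009, 947 and 1923 CPM in Control and 4385, 8223, 12878 and 9368 CPM in PITX1+ sections (log2 difference 2.09 ± 0.36 (SE), adjusted p = 0.00904), with no overlap. By slide the log2 difference was 2.09 (female, adjusted p = 0.01) and 2.10 (male), and the call was lost without PITX1+ 2 (adjusted p = 0.0584). In buccal fibroblast-like cells 2 of 8 were higher than Control and 2 lower, where 31.4% of panel genes were called: Igfbp4 rose (log2 difference 2.67 ± 0.28 (SE), adjusted p = 8.80e-05), as did Itgb4 (log2 difference 1.21 ± 0.26 (SE), adjusted p = 0.00505), while Igfbp3 fell (log2 difference -2.96 ± 0.36 (SE), adjusted p = 2.19e-04), as did Itgb3 (log2 difference -1.47 ± 0.29 (SE), adjusted p = 0.00331). Itgb4 is a hemidesmosome integrin of basal keratinocytes, and the keratinocyte transcript Krt5 near the epithelium was 7112 CPM in buccal and 1791 CPM in Control fibroblast-like cells, whose part in this call was not tested.

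In keratinocyte-like cells 3 of the 8 were called higher in PITX1+ than in Control and 1 lower, where 34.5% of panel genes were called. The receptor Igf2r rose from 467, 456 and 698 to 762, 834, 2469 and 2005 CPM (log2 difference 1.19 ± 0.21 (SE), adjusted p = 0.01), Igfbp4 by log2 difference 1.13 ± 0.26 (SE), adjusted p = 0.0197, and Igfbp7 by log2 difference 1.12 ± 0.22 (SE), adjusted p = 0.0126. On the female slide alone these were 1.15, 1.28 and 0.93 (adjusted p = 0.00677, 0.00737 and 0.0216, edgeR), and on the male slide 1.56, 1.21 and 1.75. The Igfbp4 call was lost over nuclei (adjusted p = 0.127) and without Control 1, Control 2 or PITX1+ 2 (0.082, 0.0701 and 0.0889), and the Igfbp7 call without Control 2 or PITX1+ 2 (0.0555 and 0.0769).

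Itgb4 was 6934 and 5958 CPM in the female Control sections and 3269 and 3186 CPM in the female sections labelled PITX1+, and 8972 CPM in the male Control section and 6261 and 7534 CPM in the male PITX1+ sections. PITX1+ was below Control on each slide (log2 difference -0.71 ± 0.17 (SE), adjusted p = 0.023), but the call did not hold on the female slide alone, which gave -0.63 (adjusted p = 0.0931, edgeR), with the male slide at -0.49. It was also lost with transcripts of any quality (adjusted p = 0.0789) and without Control 1, Control 2, Control 3, PITX1+ 2 or PITX1+ 3, with adjusted p from 0.0577 to 0.154.

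For buccal against Control keratinocyte-like cells, where 69.3% of panel genes were called, 5 of the 8 were higher on the TMM scale, Igf2r (log2 difference 1.99 ± 0.30 (SE), adjusted p = 1.76e-04), Igfbp3, Igfbp7, Itga6 and Itgb4, and Itgb3 was lower. None of the 5 was called higher under library-size scaling. There Igf2r and Igfbp7 had log2 differences of 0.67 and 0.46 (adjusted p = 0.0615 and 0.224), while Igfbp3, Itga6 and Itgb4 turned to -0.28, -0.70 and -0.54 (adjusted p = 0.409, 0.0279 and 0.0543, edgeR). On the TMM scale the Itga6 call was also lost without any one section but Control 3, and the Itgb4 call without Buccal 4, Buccal 7, Control 1 or Control 2, with adjusted p up to 0.158 and 0.113. The lower Itgb3 (log2 difference -1.83) turned to 0.14 with transcripts of any quality (adjusted p = 0.665).

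The receptor Igf1r was 5485, 5331 and 2736 CPM in Control, 5097, 7400.5, 5580.2 and 5760.4 CPM in PITX1+ and between 1014 and 1756 CPM in buccal keratinocyte-like cells, so buccal sections lay below all skin sections in CPM. On the TMM scale PITX1+ against Control and buccal against Control did not pass (log2 difference 0.58 ± 0.20 (SE), adjusted p = 0.0584 and log2 difference -0.26 ± 0.23 (SE), adjusted p = 0.316), though with transcripts of any quality both did (adjusted p = 0.0375 and 0.0407), as did the first without PITX1+ 1 (0.0318) or by DESeq2 (0.0109). Buccal keratinocyte-like cells were lower than PITX1+ (log2 difference -0.95 ± 0.22 (SE), adjusted p = 0.00253). Under library-size scaling buccal was lower than Control too (-1.71, adjusted p = 1.07e-04) and lower than PITX1+ by a larger difference (-2.10, adjusted p = 1.14e-05, edgeR). Itgb4, Itga6 and Itgb3 took part in the clustering, so their values by class are not independent of the class names.

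Over 95 points of class and section, the panel genes most like each member in log2(CPM + 10) were Gpx3 (Pearson r = 0.88), Col6a1 (0.86) and Pi16 (0.85) for Igf1, Igfbp5 (0.79), Abcc9 (0.79) and Pecam1 (0.75) for Igf2, Dsg1b (0.64), Cyp26b1 (0.59) and Gsdmc (0.59) for Igfbp2, Des (0.88), Igf2 (0.79) and Il6st (0.78) for Igfbp5, and Tnxb (0.85), Abca8a (0.84) and Ncam1 (0.79) for Igfbp6. Points of one section share its slide and depth. Between members the correlation was highest for Igf2 with Igfbp5 and next for Igfbp5 with Igfbp6 (0.76), and was lowest for Igfbp2 with Igfbp5 (-0.21).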

How the data were processed

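Per the labels, 5 µm formalin-fixed sections were placed on 4 slides and run with the Xenium In Situ kit. The authors deposited, for each slide, a list of decoded transcripts with a quality score, position and cell, and a cell table with transcript counts and centroids; software settings beyond this were not given in the sources used here. Counts per cell used transcripts whose score reached 20, and 426404 cells with 10 or more of them were kept. Sections were cells chained within 100 µm (wounds 200 µm), and their condition follows their place on the slide. Cells were clustered by k-means (45 clusters, 40 principal components, scikit-learn 1.9.0) without 10 IGF genes and named from markers; doublets were not called. Section sums per class were tested with edgeR 4.0.16 (TMM, slide as a covariate in skin), with DESeq2 1.42.0 as an alternative, after tests on simulated data. Order and near-far differences used exact two-sided sign-flip tests on log2(CPM + 10). The members, the 8 pathway genes and the 3 most alike genes per member are named; members and lists were chosen with earlier results of these data known. Single-slide fits were added after Pitx1 had been seen not to differ on the female slide, and all alternatives for the pathway genes after the data were seen.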

Additional observations from a re-analysis of the deposited data

Results flagged for a closer look

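Of 50 groups of sections tested for a value far from the others, 3 were flagged, where chance flags about 1 in 20, and all 3 values were those of Buccal 3. Igf1 in endothelial-like cells was 7825 CPM there and 1279 to 1645 CPM in the other 6 buccal sections. Igf2 in fibroblast-like cells was 1833 CPM there and 5079 to 7101 CPM in the others. Igf2 in immune-like cells was 1682 CPM there and 2756 to 3554 CPM in the others. Buccal 3 is the section with 2449 cells and 2 keratinocyte-like cells. The PITX1+ difference in Igfbp5 of keratinocyte-like cells differed between the male and female slides by 2.94 on the log2 scale (edgeR interaction test), and sex and slide cannot be told apart.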

How the results depend on the processing

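Igf2 in buccal against Control fibroblast-like, endothelial-like and mural-like cells, Igfbp2 in buccal against Control keratinocyte-like and mural-like cells, Igf2 and Igfbp5 in buccal against PITX1+ fibroblast-like cells, and Igfbp2 and Igfbp6 in buccal against PITX1+ keratinocyte-like cells kept their direction and their call under every alternative run. The number of members called is given below with, in parentheses, the percent of panel genes called by the same fit. For PITX1+ against Control in fibroblast-like cells it went from 1 (9.15%) to 0 with library-size scaling (8.84%), transcripts of any quality (7.93%), 60 clusters (6.4%), no slide covariate (0%) or the male slide only (0%), and to 2 with DESeq2 (15.9%). In keratinocyte-like cells it went from 2 (34.5%) to 0 with library-size scaling (35.4%) or no slide covariate (10.1%), to 1 with any quality (47.9%) and to 3 with DESeq2 (57.6%) or the female slide only (44.8%). In mural-like cells it went from 1 (0.562%) to 0 with nuclei (0%), no slide covariate (0%) or the male slide (0%), to 2 with DESeq2 (13.3%) or no gene filter (4.27%), and to 3 on the female slide (15%). In endothelial-like cells it went from 0 (1.38%) to 1 with DESeq2 (2.86%), nuclei (4.44%) or 60 clusters (2.88%) and to 2 on the female slide (1.78%), and in immune-like cells from 0 (0.308%) to 1 with DESeq2 (7.36%) and to 2 on the female slide (14%). For buccal against Control it went from 1 (31.4%) to 2 with nuclei (27.7%) in fibroblast-like cells, from 3 (69.3%) to 1 with any quality (71%), 2 with library-size scaling (78.3%) and 4 with DESeq2 (73.4%) or nuclei (70%) in keratinocyte-like cells, from 1 (30.9%) to 2 with DESeq2 (40.1%) or no gene filter (34.1%) in endothelial-like cells, from 3 (39.9%) to 2 with library-size scaling (40.5%), no gene filter (26.9%), nuclei (38.4%, where Igfbp2 was too low to be tested) or 60 clusters (34.9%) in mural-like cells, and from 1 (12%) to 0 with nuclei (10.4%) or 2 with 30 clusters (18.4%) in immune-like cells. For buccal against PITX1+ it went from 3 (47%) to 4 with DESeq2 (55.4%), nuclei (39%), 30 clusters (47.2%) or 60 clusters (49.4%) and to 2 with the male PITX1+ sections alone (44.2%) in fibroblast-like cells, and from 3 (61.4%) to 4 with DESeq2 (66%) and 2 with any quality (60.4%) in keratinocyte-like cells. The difference between slides in keratinocyte-like cells went from 1 (4.27%) to 2 with library-size scaling (3.96%) or DESeq2 (10.8%) and to 0 with nuclei (5.18%). The log2 difference turned to -0.40 for Igfbp5, buccal against Control keratinocyte-like cells, with library-size scaling, and over nuclei to -0.16 for Igf2, buccal against Control immune-like cells, to -0.45 for Igf2, buccal against PITX1+ keratinocyte-like cells, and to 0.090 for Igfbp2 in PITX1+ wounds against the Control wound. For buccal against Control keratinocyte-like cells it also turned, with library-size scaling, to -0.28 for Igfbp3, -0.70 for Itga6 and -0.54 for Itgb4, and with transcripts of any quality to 0.14 for Itgb3, and the Itga6 call was lost over nuclei, with any quality and with 30 or 60 clusters. Without the slide covariate none of the 5 pathway gene calls of PITX1+ against Control in fibroblast-like and keratinocyte-like cells held. On the male slide the 1 Control section is assumed to vary like the other sections. The causes were not tested.

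Leaving out 1 section at a time, the members called for PITX1+ against Control ranged from 0 to 2 (0.309% to 14.1%) in fibroblast-like, 0 to 2 (12.2% to 39%) in keratinocyte-like, 0 to 2 (0% to 4.69%) in endothelial-like, 0 to 2 (0% to 8.95%) in immune-like and 1 to 3 (0.606% to 9.41%) in mural-like cells. For buccal against Control they ranged from 1 to 3 (18.2% to 49.8%) in fibroblast-like, 1 to 3 (13.8% to 51.2%) in endothelial-like, 2 to 3 (60.9% to 73.8%) in keratinocyte-like, 2 to 4 (26.7% to 52%) in mural-like and 1 to 2 (5.86% to 36.8%) in immune-like cells, and for buccal against PITX1+ from 2 to 4 (35.3% to 53.5%) in fibroblast-like and 3 to 4 (56.2% to 64.7%) in keratinocyte-like cells. The difference between slides ranged from 0 to 2 (0% to 11.3%) in keratinocyte-like and 0 to 0 (0% to 1.53%) in fibroblast-like cells, and could not be fitted without Control 3, the one male Control section. The neighbouring classes told apart ranged from 6 to 12. The near-far tests could not pass the threshold with these numbers of sections, so their alternatives say nothing about stability. The class-order and near-far tests were paired by section. Between conditions no pairing was possible, because the sections carry no replicate numbers in the labels.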
